A study of Mus musculus with 6 samples.

Results

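The serpin protease inhibitor family was examined in whole mouse kidneys of 2 genotypes, each represented by 3 animals aged 35 days. Its members were the genes of the authors' deposited table whose symbol begins with Serpin, a clade letter from a to i and a number, without Serping1, which gave 49 of 20138 genes. By clade these were 22 genes of clade a, 18 of clade b, 3 of clade e, 2 of clade f and 1 each of clades c, d, h and i. Both genotypes carry a Pkhd1-driven Cre and floxed Pkd2 (Pkhd1Cre; Pkd2 F/F), so polycystin-2, whose loss makes kidneys cystic, is removed where Pkhd1 is active, mainly in tubule epithelium. The group called Pkd2-KO here has these alleles only, and the group called Pkd2-miR-214-KO also carries miR-214null, for which the labels do not say how many copies are lost. Libraries came from whole kidneys, which also hold cells that keep Pkd2. The question put to the serpins was whether their transcripts differ once the microRNA miR-214 is also lost from kidneys without Pkd2. RNA was total RNA made into stranded libraries, per the labels.

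Serpins are single-domain proteins that trap serine proteases, and in some cases cysteine proteases, by presenting a reactive loop that the protease cuts, after which inhibitor and enzyme stay bound. Clade a holds plasma inhibitors and hormone carriers that are made largely in liver, such as alpha-1 antitrypsin, and the other clades hold antithrombin (clade c), heparin cofactor II (clade d), protease nexin 1 (clade e), alpha-2 antiplasmin (clade f), a collagen chaperone (clade h), neuroserpin (clade i) and intracellular inhibitors (clade b). For the comparison of liver-type with locally expressed genes, 11 clade a genes known mainly as liver products formed the liver-type group. The other 11 clade a genes, 3 plasma serpins of clades c, d and f, and 24 locally expressed genes (clades b, e, h and i and Serpinf1) formed the remaining groups.

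The mouse has 5 copies of the alpha-1 antitrypsin gene, Serpina1a to Serpina1e, whose promoters are shown because these copies had very different folds while their upstream sequence is close to identical. Each line below gives 86 bases of the RefSeq promoter on GRCm38.p6, aligned on the motif described next and not on the start of the gene, written 5′ to 3′ on the minus strand of chromosome 12. Capitals mark a core motif of the liver and kidney factor HNF1 (GTTAAT) and, where present, one of HNF4 (AGTCCA, read here on its other strand as TGGACT).
Serpina1a (chr12:103863625-103863710): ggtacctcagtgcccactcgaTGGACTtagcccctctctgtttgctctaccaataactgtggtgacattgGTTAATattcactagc
Serpina1b (chr12:103738200-103738285): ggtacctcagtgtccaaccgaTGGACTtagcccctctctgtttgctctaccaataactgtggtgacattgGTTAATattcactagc
Serpina1d (chr12:103773634-103773719): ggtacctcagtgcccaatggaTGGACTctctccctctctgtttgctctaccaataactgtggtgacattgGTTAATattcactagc
Serpina1c (chr12:103904962-103905047): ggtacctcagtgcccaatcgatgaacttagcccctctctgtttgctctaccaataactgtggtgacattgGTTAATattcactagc
Serpina1e (chr12:103956960-103957045): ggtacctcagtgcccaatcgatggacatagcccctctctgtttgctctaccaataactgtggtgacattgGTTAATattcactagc
Any pair of these windows had between 79 and 84 of 86 bases in common, and all 5 held the HNF1 motif, which began between 16 and 78 bases before the annotated start. The HNF4 motif was in the windows of Serpina1a, Serpina1b and Serpina1d and in neither that of Serpina1c nor that of Serpina1e. The lines were ordered and the motifs searched with the folds known, and a link between motif and fold was not tested.

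Values per library were not analysed here, so the depth is unknown, single animals cannot be shown, and whether the groups overlap cannot be seen. The test of the authors is the one place where variation among the animals is taken up. All folds below come from it and are on the log2 scale. A positive fold means more RNA in Pkd2-miR-214-KO. This direction was read from the deleted gene Mir214, whose fold was -7.62 (authors' deposited table), so Mir214 is no separate check of the labels. Pkd2, floxed in both genotypes, had a fold of -0.11 there. Errors are the approximate standard error (SE) that a fold and its likelihood ratio imply. The median fold of all genes was 0, with 49.8% of genes above 0 and 48.2% below. The sex of the animals is not given. Xist, the RNA of the inactive X chromosome, had a fold of 10.21 ± 2.36 in the authors' deposited table (adjusted p = 0.0168, authors' likelihood ratio test). The Y-linked genes Kdm5d, Uty, Ddx3y and Eif2s3y had folds from -0.66 to -0.14. Their SE was higher than that of at least 99.9% of genes expressed at a similar level. The part of the sex of the animals in the serpin folds was not tested.

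No serpin gene passed the authors' edgeR likelihood ratio test at an adjusted p under 0.05, where 25 of 20138 genes (0.124%) did. Without adjustment, 11 of the 49 had a p under 0.05, of which 10 were higher and 1 was lower in Pkd2-miR-214-KO. This is 20.4% and 2.04% of the family, against 3.1% of all genes higher and 1.71% lower by the same rule. The adjusted p of the 10 higher genes ran from 0.130 to 0.962 in the authors' deposited table. They were Serpina3k, Serpinc1, Serpina1e, Serpina11, Serpina3m, Serpina1c, Serpina3n, Serpinb1a, Serpina7 and Serpinb6a, and the lower gene was Serpinf2. Of the liver-type clade a group 6 of 11 were among them, and of the locally expressed clades 2 of 24. Folds above 2 were found for 9 of the 49 genes, against 2.38% of all genes. In RNA of a whole organ, a change in the number of cells of a type and a change in RNA per cell cannot be told apart.

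**Figure D1:**
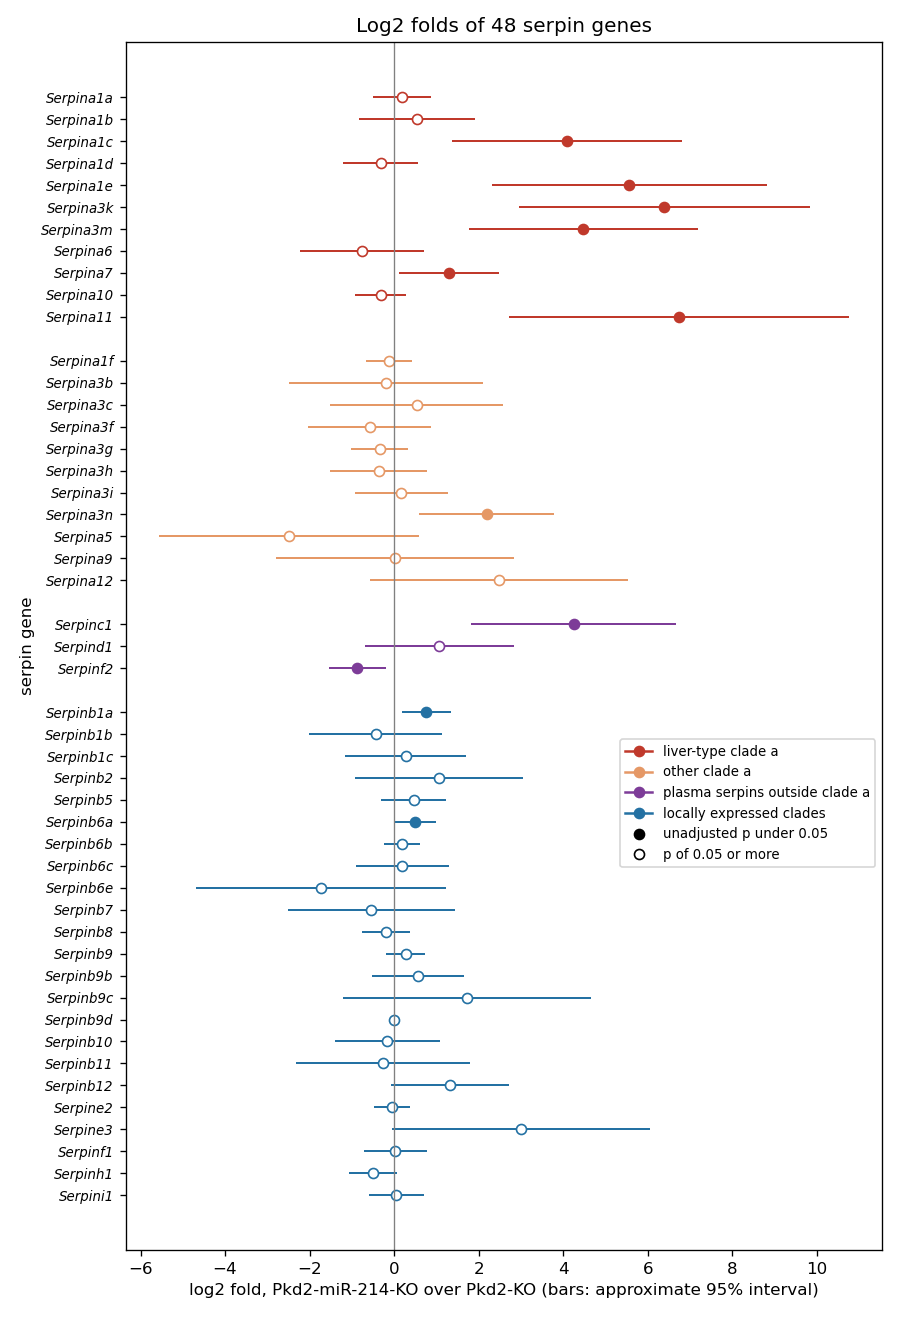
Log2 folds of 48 of the 49 serpin genes by group (x axis) with approximate 95% intervals; filled points have an unadjusted p under 0.05. The liver-type genes fall into 5 between -0.76 and 0.53 and 6 from 1.30 upward, while the locally expressed genes lie around their median of 0.12; Serpinb9d has a fold of 0 and no interval.

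The alpha-1 antitrypsin copies divided as follows. Alpha-1 antitrypsin is the main plasma inhibitor of neutrophil elastase. Serpina1a had a fold of 0.19 ± 0.34, with an approximate 95% interval of -0.48 to 0.86, at a mean of 4.95 log2 CPM (CPM are read counts scaled to the size of each library) in the authors' deposited table. Serpina1b (0.53 ± 0.69) and Serpina1d (-0.32 ± 0.44) likewise had intervals that include 0, at means of 3.49 and 3.67 log2 CPM in the authors' deposited table. By contrast Serpina1c had a fold of 4.08 ± 1.38 (p = 0.00305, adjusted p = 0.344) in the authors' deposited table. Serpina1e had a fold of 5.56 ± 1.64 (p = 0.000715, adjusted p = 0.202) in the authors' deposited table. The means of these copies were low, 0.48 log2 CPM for Serpina1c and 0.70 for Serpina1e. The copies with folds near 0 are thus the 3 with the higher means. The intervals of Serpina1a (highest 0.86) and Serpina1e (lowest 2.34) do not meet, while those of Serpina1b (highest 1.88) and Serpina1c (lowest 1.38) overlap. A difference in fold between copies was not tested.

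Reads of these copies are hard to assign, which limits the values of each single copy. Their coding sequences in GENCODE M21 were between 91.4% and 96.7% identical over 10 pairs. Between 35.6% of the 50-base windows of the transcript of Serpina1e and 74.2% of those of Serpina1c also occurred in transcripts of other genes, and Serpina1c shared 69.4% of its windows with Serpina1a. How the authors counted reads with more than 1 match is not given in the sources used here. In GENCODE M21 the annotated span of Serpina1b (chromosome 12, 103728156 to 103830373, minus strand) also contains that of Serpina1d (103763594 to 103773592). The RefSeq promoter of Serpina1b printed above (103738200 to 103738285) lies below Serpina1d, so a minus-strand gene starting there does not contain it. The authors may have counted on another annotation, so this overlap may not apply to their counts. The folds of the 5 copies are therefore uncertain as values of single genes.

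Among the other liver-type genes, the largest folds were those of Serpina11, Serpina3k and Serpina3m. Serpina3k, a relative of alpha-1 antichymotrypsin abundant in liver, had a fold of 6.39 ± 1.75 (p = 0.000252, adjusted p = 0.130) at a mean of 2.85 log2 CPM in the authors' deposited table, the smallest p of the family and rank 39 among all genes. Serpina3m, its neighbour, had a fold of 4.47 ± 1.37 (p = 0.00111, adjusted p = 0.223) in the authors' deposited table. Both genes begin at the same base in GENCODE M21 (chromosome 12, 104338486, plus strand), and Serpina3k shared 12.8% of its 50-base windows with Serpina3m. Serpina11, a little-studied liver gene, had a fold of 6.74 ± 2.04 (p = 0.000944, adjusted p = 0.213) at only -2.07 log2 CPM in the authors' deposited table. For Serpina11, 44.4% of windows were shared with the overlapping GENCODE M21 model Gm28577. Serpina7, the X-linked gene of thyroxine-binding globulin, had a smaller fold of 1.30 ± 0.59 (p = 0.0275, adjusted p = 0.857) in the authors' deposited table.

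The remaining liver-type genes, Serpina6 and Serpina10, were well expressed in these kidneys and had negative folds whose intervals include 0. Serpina6 encodes corticosteroid-binding globulin, the plasma carrier of glucocorticoids. Its fold was -0.76 ± 0.74 (p = 0.305, adjusted p = 1) at a mean of 10.40 log2 CPM in the authors' deposited table. Per kilobase of annotated exon it was the most abundant serpin, at 9.58 log2 CPM per kb, ahead of Serpinh1 at 7.25 and Serpina1f at 5.60. Serpina10, the protein Z-dependent inhibitor of factor Xa, had a fold of -0.31 ± 0.30 (authors' deposited table). The name liver-type thus describes where these genes are best known, and 5 of the 11 had a mean of more than 3 log2 CPM in these kidneys.

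The mean and the fold of a gene together imply a level in each genotype, if the mean is taken as the simple average of the 2 groups. By this arithmetic, which is rough at low counts, the 5 genes Serpina6, Serpina10, Serpina1a, Serpina1b and Serpina1d had 9.20 to 1696 CPM in Pkd2-KO and 11.3 to 1002 CPM in Pkd2-miR-214-KO. The other 6 had 0.00441 to 0.942 CPM in Pkd2-KO and 0.470 to 14.3 CPM in Pkd2-miR-214-KO. For Serpina3k the implied levels were 0.170 and 14.3 CPM, and for Serpina1e 0.0672 and 3.18 CPM. The levels follow from the fold, so the low level of these genes in Pkd2-KO is the same measurement told in another unit. Across the 11 genes the fold went down with the mean level (Pearson r = -0.74, Spearman rho = -0.85, n = 11 genes of the same libraries), whereas over all 49 members the same values were -0.11 and -0.07.

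**Figure D2:**
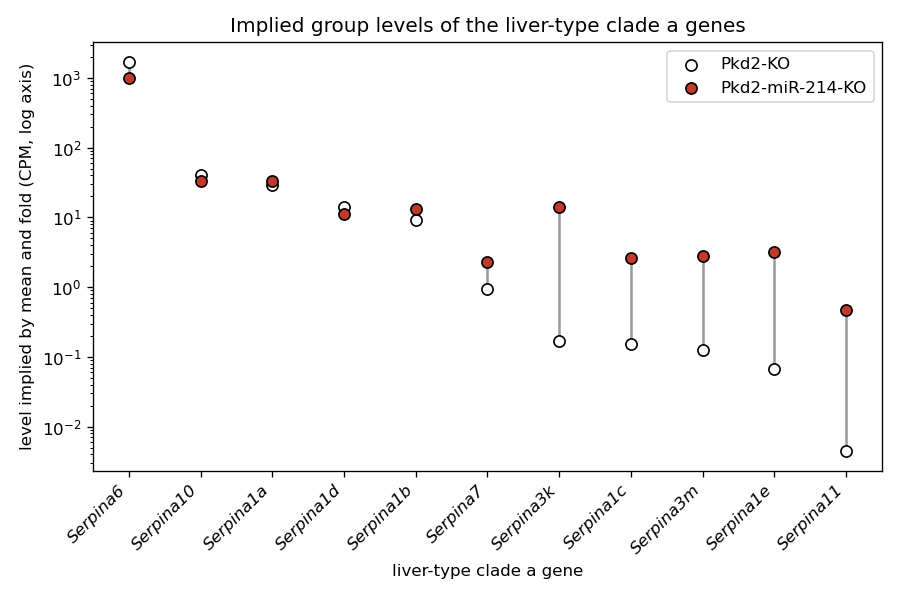
Levels of the 11 liver-type clade a genes in the 2 genotypes as implied by mean and fold (y axis, CPM on a log scale; no error can be given). Open points are Pkd2-KO and red points Pkd2-miR-214-KO: the 5 genes at the left have between 9.20 and 1696 CPM in Pkd2-KO, among them Serpina6 with 1696 and 1002 CPM in the 2 genotypes, and the 6 at the right have 0.00441 to 0.942 CPM there.

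The errors of these folds were wide. The SE of the 6 liver-type genes with larger folds ranked between the 85.6 and 100 percentile among genes expressed at a similar level, with a median of 99.3, and that of the other 5 between 90.5 and 99.6. This SE is worked out from the fold and its likelihood ratio, so it is no direct measure of spread among animals. Very low counts in a genotype and scatter among animals cannot be told apart in it without values per library.

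Serpin genes of clade a lie together on chromosome 12, and 21 of the 22 fall between 103614786 and 104414329, a span of 799.5 kb. In order from Serpina10 the genes Serpina10, Serpina6, Serpina1f, Serpina1b, Serpina1d and Serpina1a had folds between -0.76 and 0.53. The next genes, Serpina1c, Serpina1e and Serpina11, had folds of 4.08 to 6.74, and from Serpina9 to Serpina3i the p-values were all above 0.05. Serpina3k, Serpina3m and Serpina3n close the cluster with folds of 6.39, 4.47 and 2.19. Sequence sharing was in part between neighbours in this order. Serpina1c shared most with Serpina1a, the gene before it, and Serpina1b and Serpina1d shared most with each other, as did Serpina3k and Serpina3m. Serpina1e shared most with Serpina1d, which is not next to it, and Serpina6 and Serpina1f shared 0% of windows with other genes. The part of shared sequence in the folds along the cluster was not tested.

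**Figure D3:**
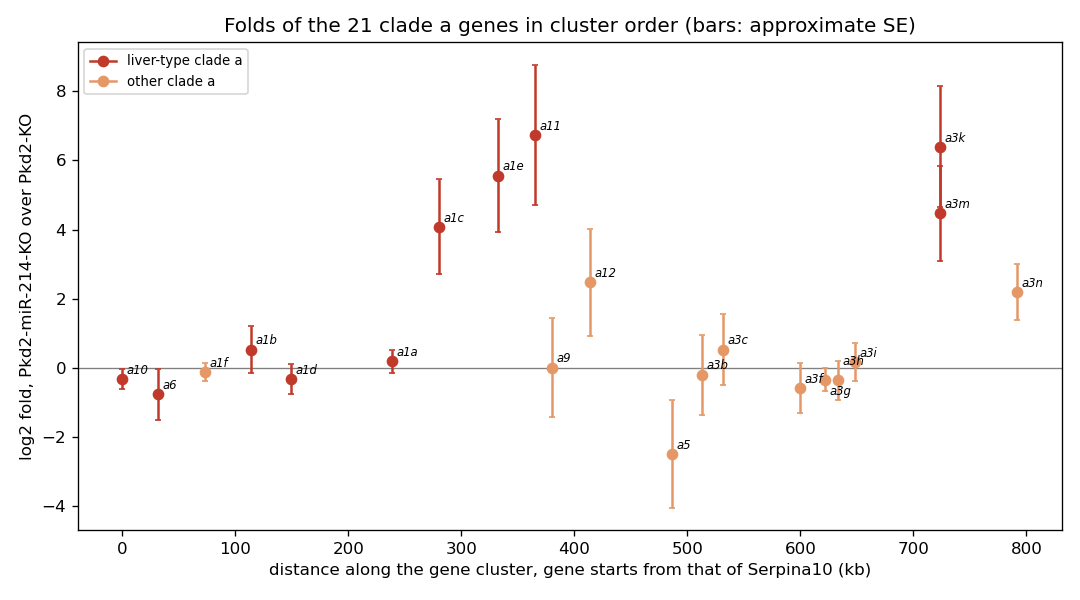
Log2 folds (y axis, with approximate SE) of the 21 clade a genes of chromosome 12 by the annotated start of each gene (x axis, kb from the start of Serpina10). Serpina1c, Serpina1e and Serpina11 stand together above the genes before them, and Serpina3k and Serpina3m share a start.

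Of the other 11 clade a genes, 5 had positive and 6 negative folds, with a median of -0.12. Serpina3n, an acute-phase inhibitor that many tissues make, had a fold of 2.19 ± 0.80 (p = 0.00634, adjusted p = 0.493) in the authors' deposited table. Its mean of 5.58 log2 CPM set it apart from the low liver-type genes, and its implied levels were 17.2 CPM in Pkd2-KO and 78.4 in Pkd2-miR-214-KO. Its SE was also wide for this level, at percentile 99.9. Serpina1f, a relative of the alpha-1 antitrypsin copies and the other clade a gene with the highest mean (7.28 log2 CPM), had a fold of -0.12 ± 0.27 and 0% shared windows. Serpina3g, known from activated T cells and macrophages, had -0.35 ± 0.33, and Serpina3f next to it -0.57 ± 0.73 in the authors' deposited table. The adipokine gene Serpina12 (2.48 ± 1.55) and the protein C inhibitor gene Serpina5 (-2.49 ± 1.56) had large folds at means of -4.05 and -4.12 log2 CPM, close to the lowest mean of the table (-4.19), and neither had a p under 0.05. Near this floor a value repeats from gene to gene: 18 other genes had the fold of Serpina12 within 0.001, and 494 that of Serpinb9d, so such folds stand for very few reads.

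The plasma serpins of other clades went both ways. Serpinc1 encodes antithrombin, the main inhibitor of thrombin and factor Xa, on chromosome 1 (160978585 to 161005863). The deleted Mir214 lies near it on the same chromosome, with its mature forms from 162223397 to 162223459. It had a fold of 4.24 ± 1.23 (p = 0.000537, adjusted p = 0.195) at a mean of 1.11 log2 CPM in the authors' deposited table, and its transcript shared 0% of windows with other genes. In this it differs from the alpha-1 antitrypsin copies. Serpind1, heparin cofactor II, had a fold of 1.07 ± 0.89 with an approximate 95% interval of -0.67 to 2.81 in the authors' deposited table. Serpinf2, alpha-2 antiplasmin, which blocks plasmin and is made by kidney as well as liver, had a fold of -0.87 ± 0.34 (p = 0.00964, adjusted p = 0.586) at 5.54 log2 CPM in the authors' deposited table. It was the 1 serpin with a lower value at an unadjusted p under 0.05, with implied levels of 59.9 CPM in Pkd2-KO and 32.8 in Pkd2-miR-214-KO.

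Clade b serpins stay inside cells and protect them from proteases of their own granules and lysosomes. Of the 18 genes, 11 had positive and 6 negative folds and 1 a fold of 0, with a median of 0.23. Serpinb1a, an inhibitor of the neutrophil proteases elastase and cathepsin G, had a fold of 0.76 ± 0.29 (p = 0.00794, adjusted p = 0.545) at 4.31 log2 CPM in the authors' deposited table. Serpinb6a had a fold of 0.49 ± 0.24 (p = 0.0391, adjusted p = 0.962) at 6.70 log2 CPM in the authors' deposited table. Serpinb9, the inhibitor of granzyme B with the highest mean of the clade (6.85 log2 CPM), had a fold of 0.27 ± 0.22 and an approximate 95% interval of -0.16 to 0.71 in the authors' deposited table. Serpinb6b had 0.19 ± 0.20, Serpinb8 -0.20 ± 0.28 and the maspin gene Serpinb5 0.46 ± 0.38 in the authors' deposited table.

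The precision in clade b differed with expression. Of its genes 7 had a mean of at least 1 CPM, with folds from -0.20 to 0.76, a median of 0.46 and an SE between 0.20 and 0.55. The other 11 were below 1 CPM, with folds from -1.72 to 1.72, a median of 0 and an SE of at least 0.55 where one could be computed. Serpinb2, plasminogen activator inhibitor 2, was among the latter (1.07, with an approximate 95% interval of -0.89 to 3.03, in the authors' deposited table), as was Serpinb12 (1.32 ± 0.70, p = 0.0588). The genes of the chromosome 13 cluster, 11 in number between 32842092 and 34002794, had a median of 0.27 with 8 positive folds.

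The locally expressed serpins outside clade b had folds between -0.49 and 0.05, apart from Serpine3. Serpine2, protease nexin 1, which inhibits thrombin and plasminogen activators at cell surfaces, had a fold of -0.06 ± 0.21 with an approximate 95% interval of -0.46 to 0.34 in the authors' deposited table. This interval ends well below the folds of Serpina3k and Serpinc1. Serpinf1, the antiangiogenic factor PEDF, had 0.03 ± 0.37, and Serpini1, neuroserpin, 0.05 ± 0.32 in the authors' deposited table. Serpinh1, the collagen chaperone HSP47 on chromosome 7 (99345376 to 99353239), had a fold of -0.49 ± 0.28 (p = 0.0752, adjusted p = 1) at 8.53 log2 CPM in the authors' deposited table. Serpine3 had a fold of 3.00 ± 1.55 (p = 0.0521) at -3.99 log2 CPM, a mean close to the floor of the authors' deposited table.

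**Figure D4:**
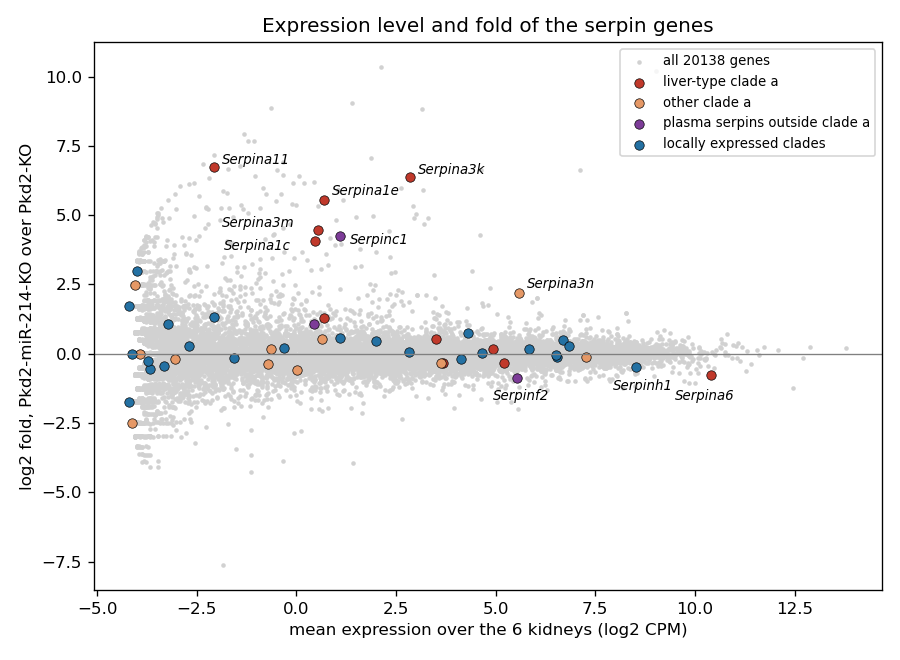
Mean expression (x axis, log2 CPM) and log2 fold (y axis) of all genes (grey) and of the 49 serpins by group. Liver-type genes with large folds have means below 3 log2 CPM, Serpina3n stands above the genes around 5.58 log2 CPM, and the expressed local serpins lie near 0.

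Side by side, the liver-type clade a genes had a median fold of 1.30 (8 positive, 3 negative), the locally expressed clades 0.12 (14 positive, 9 negative and 1 at 0), and all genes 0. The 11 liver-type folds ran from -0.76 to 6.74. Every clade a gene together had a median of 0.18. Without clade b, the 6 local genes had a median of -0.02, so the sign of the local median rests on clade b. These are descriptions of the authors' folds, and the difference between the groups was not tested.

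Markers of hepatocytes had positive folds beside the low liver-type serpins. Of 22 hepatocyte genes, all 22 had positive folds with a median of 2.06, 16 had an unadjusted p under 0.05, and 0 passed after adjustment. Of all genes, 49.8% had positive folds, and 3.1% were higher at an unadjusted p under 0.05. The list was chosen with earlier results of these data known. The apolipoprotein genes Apoh (4.95 ± 1.33) and Apoa1 (5.92 ± 1.63) and the inhibitor gene Ambp (2.51 ± 0.73) had the smallest p-values of that list in the authors' deposited table. Albumin (Alb), the defining plasma protein of hepatocytes, had a fold of 6.64 ± 2.05 with implied levels of 2.76 CPM in Pkd2-KO and 274 CPM in Pkd2-miR-214-KO. The means of the list ran from 1.30 to 7.38 log2 CPM, above the floor of the table. A mean over both genotypes can hide a low level in 1 of them. The implied levels in Pkd2-KO ran from 0.177 CPM for Apoh to 115 CPM for Trf. Those of Apoa1 and Hpx were also below 1 CPM, at 0.297 and 0.701 CPM, while Fga had 59.5 CPM. The SE percentile had a median of 99.0 over these markers and 99.1 over the liver-type serpins. The part of hepatocyte RNA in the serpin folds was not tested.

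Markers of leukocytes were read in the same way, since clade b serpins and Serpina3g are expressed by them. Neutrophil markers had 9 of 10 positive folds with a median of 1.60, B and plasma cell markers 9 of 9 with 3.19, macrophage markers 7 of 10 with 0.17, and T and NK cell markers 0 of 10 with -0.55. The smallest p-values belonged to Ngp (6.63 ± 1.75), Camp (5.24 ± 1.75) and Ltf (1.63 ± 0.58) among neutrophil genes and to Ms4a1 (4.23 ± 1.14), Cd79a (3.77 ± 1.11) and Pou2af1 (3.19 ± 0.94) among B cell genes in the authors' deposited table. Ngp and Camp had low means of -0.48 and -1.69 log2 CPM. The neutrophil genes Mmp9 (0.47 ± 0.54), Cxcr2 (0.11 ± 0.45) and Csf3r (-0.16 ± 0.32) had intervals that include 0. Their means were higher, at 2.10, 1.46 and 2.96 log2 CPM. The other 7 neutrophil genes had intervals above 0. Among macrophage genes Cd163 rose (1.76 ± 0.35, adjusted p = 0.0013), while Mrc1 (0.51 ± 0.24) and Itgax (-0.75 ± 0.37) did not pass in the authors' deposited table. For T and NK cells the smallest p-values were those of Nkg7 (-1.16 ± 0.65), Cd8a (-0.78 ± 0.59) and Cd8b1 (-0.87 ± 0.69). The part of these cells in the folds of Serpinb1a, Serpinb6a and Serpina3n was not tested.

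Other tissues that express serpins were checked too. Neuron markers had 6 of 8 positive folds with a median of 0.77, led by Th (6.05 ± 1.63), Snap25 (3.62 ± 1.22) and Stmn2 (1.52 ± 0.55) (authors' deposited table). Of these 8 genes 6 were below 1 CPM, among them Th and Snap25 at means of -2.93 and -2.76 log2 CPM. Gap43 (1.24 ± 0.91), Nefl (0.29 ± 0.57), Syt1 (0.22 ± 0.51), Tubb3 (-0.17 ± 0.57) and Rbfox3 (-0.37 ± 0.54) had intervals that include 0. Neuroserpin had 0.05. Squamous and urothelial markers had 3 of 10 positive with a median of -0.15 (Krt13 -1.90 ± 1.23, Krt4 -0.35 ± 0.40, Upk1a -0.55 ± 0.68), and adipocyte markers 0 of 8 with -0.45 (Cidec -0.71 ± 1.17, Pparg -0.31 ± 0.51, Plin1 -0.79 ± 1.34). Exocrine pancreas markers had 6 of 10 listed genes in the table, all below 1 CPM, with a median of 0.24 (Cela2a 2.48 ± 1.55 and Pnlip 2.48 ± 1.55). Kidney tubule and podocyte markers, the check of the labelled tissue, had a median level of 8.49 log2 CPM and a median fold of -0.43 (Nphs1 -0.43 ± 0.26, Slc12a1 -0.70 ± 0.43, Slc12a3 -0.67 ± 0.45).

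The proteases and partners of serpins were read by function. In fibrinolysis, 9 of 13 genes had positive folds with a median of 0.05 and 2 had a p under 0.05, both plasma proteins of the liver: plasminogen (Plg, 4.99 ± 1.56, adjusted p = 0.236) and vitronectin (Vtn, 3.16 ± 1.07, adjusted p = 0.344) in the authors' deposited table. Tissue plasminogen activator (Plat), which turns plasminogen into plasmin, had -0.42 ± 0.22. Of 15 coagulation genes, 13 were positive with a median of 0.46, and 5 higher and 1 lower had a p under 0.05. Factor X (F10, 1.45 ± 0.48), prothrombin (F2, 5.55 ± 2.02) and factor XII (F12, 4.29 ± 1.59) had the smallest p-values of these in the authors' deposited table. Antithrombin, whose own fold was 4.24, inhibits thrombin and factor Xa, the active forms of prothrombin and factor X. None of these genes passed after adjustment. At an unadjusted p under 0.05, 3.1% of all genes were higher and 1.71% were lower.

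Proteases held in cells were closer to 0 or split. Of 7 neutrophil and cytotoxic protease genes, 4 were positive, with Mpo, a granule enzyme listed with them (5.29 ± 1.63), Gzmb (-1.92 ± 0.81) and Ctsg (3.17 ± 1.67) leading in the authors' deposited table. Of these 7 genes 6 were below 1 CPM, with means of -2.28 log2 CPM for Mpo, -0.72 for Gzmb and -3.51 for Ctsg. The lysosomal cathepsins had 10 of 11 positive folds with a median of 0.22 and 0 with a p under 0.05, led by Ctsd (0.73 ± 0.38), Ctsk (0.36 ± 0.22) and Ctsz (-0.28 ± 0.21). Membrane serine proteases of epithelia had a median of -0.03 with 0 of 8 at a p under 0.05 (Corin -0.58 ± 0.46, Tmprss2 0.31 ± 0.26, Hpn -0.27 ± 0.24). The 12 collagen folding partners of Serpinh1 had a median of -0.08 with 6 positive and 6 negative folds and 0 with a p under 0.05 (Fkbp10 -0.35 ± 0.21, Col1a1 -0.46 ± 0.33, Plod2 0.23 ± 0.21).

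**Figure D5:**
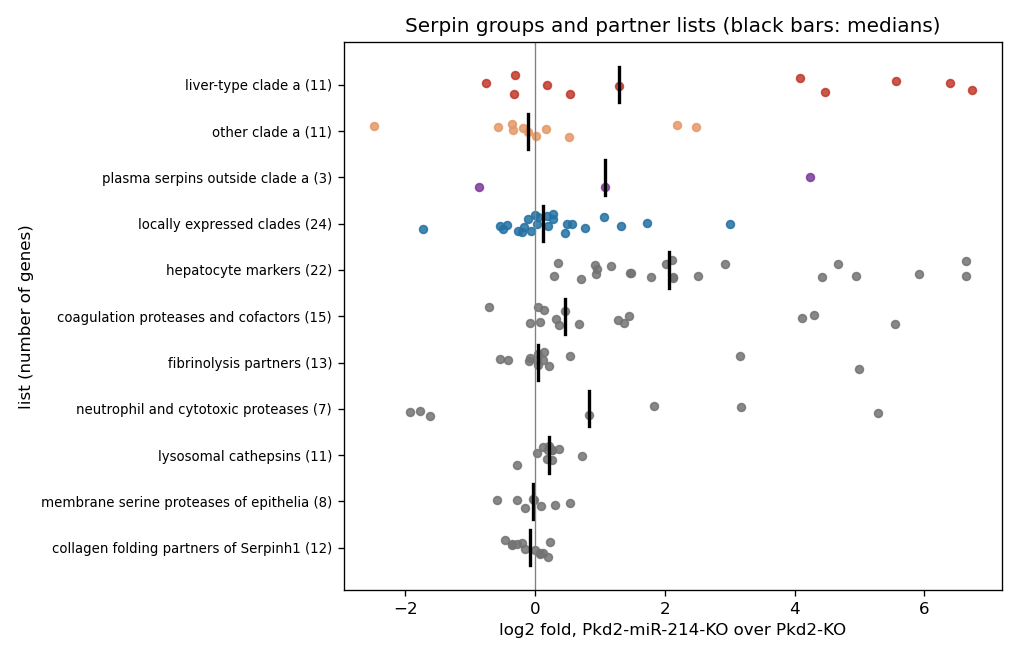
Log2 folds (x axis) of the serpin groups and of partner lists, 1 point per gene, with black bars at the medians. The hepatocyte markers (median 2.06) and part of the liver-type serpins, coagulation and fibrinolysis genes reach folds above 4, while cathepsins, epithelial proteases and collagen partners lie near 0.

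Since the genotypes differ in miR-214, its seed matches in serpin transcripts are given with its mature forms, from RefSeq on GRCm38.p6 (chromosome 1, plus strand), the seed of bases 2 to 8 in capitals, and the sites in the serpin 3′ UTR that are discussed, with the match in capitals.
mmu-miR-214-3p (chr1:162223438-162223459): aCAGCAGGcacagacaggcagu
mmu-miR-214-5p (chr1:162223397-162223418): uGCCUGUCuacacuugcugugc
Serpinc1 site for miR-214-3p: tagtcagataCCTGCTGctttcaaacg
Serpini1 site for miR-214-3p: cttagtacgtCCTGCTGacacctggtc
Serpinb12 site for miR-214-3p: aagctgaccaCCTGCTGctacagttgt
In the longest annotated 3′ UTR, 7 of 48 serpins (14.6%) held the match of miR-214-3p, against 21.3% of 16889 genes, and 2 of 48 (4.17%) that of miR-214-5p, against 9.40%. The genes with the 3p match were Serpina3c, Serpina3f, Serpina3g, Serpina3i, Serpinb12, Serpinc1 and Serpini1, with folds from -0.57 to 4.24 and a median of 0.17. Those with the 5p match were Serpina10 (-0.31) and Serpinb1c (0.27). Apart from Serpinc1, none of the 11 serpins with an unadjusted p under 0.05 held either match. Serpinc1 also lies near the deleted locus on chromosome 1, and the part of its match or its position in its fold was not tested. A match is no proof of a site in use, and the lack of these letters in this stretch says nothing about other kinds of site.

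Promoters of 41 of the 49 members were matched in RefSeq (not among them were the liver-type genes Serpina3k, Serpina3m, Serpina6 and Serpina10), from 250 bases before to 50 after each annotated start, and 4 motifs were searched on both strands after the folds were known. A serpin gene was counted if any of its promoters held the motif, whereas the shares of all promoters count each promoter singly. A gene with several promoters has more chances, so these values are not fully alike. The HNF1 motif GTTAAT was in 6 of 7 liver-type genes (Serpina1a to Serpina1e and Serpina7), 1 of 9 other clade a genes, 0 of 3 plasma serpins of other clades and 1 of 22 locally expressed genes, against 7.10% of 32851 promoters. Of the 6 liver-type genes with it, 5 are the near-identical copies printed above, whose windows were 91.9% to 97.7% identical, so they are not separate cases. The HNF4 motif AGTCCA was in 3 of 7 liver-type genes, 1 of 9 other clade a genes, 0 of 3 plasma serpins and 3 of 22 local ones, against 14.1% of all promoters. TTGCNNAA, a C/EBP motif, was in 5 of 7 liver-type, 5 of 9 other clade a, 1 of 3 plasma (Serpinc1) and 2 of 22 local genes (all promoters 10.8%), and TTCNNNGAA, a STAT motif, in 1 of 7, 4 of 9, 0 of 3 and 3 of 22 (all promoters 8.30%). The motifs do not overlap in the windows printed above. All 5 alpha-1 antitrypsin copies held the HNF1 motif, and a link between any of these motifs and the folds was not tested.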

How the data were processed

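Kidney RNA of 6 mice was sequenced by the authors. Alignment with TopHat2 2.0.12, testing with edgeR and the build mm10 are named, without settings, per the submitters' processing notes. How reads were counted, by strand or not, and how genes were filtered is not given in the sources used here. Per the file headers, the authors' deposited table holds a log2 fold, a mean log2 CPM, a likelihood ratio (a score on 1 degree of freedom), its p-value and the adjusted value for each gene. The chi-square tail of the deposited score gave every deposited p-value within 6.25e-15, and Benjamini-Hochberg adjustment over 20138 genes gave the adjusted ones within 5.1e-14. The authors' test was the planned one, and a new edgeR test was planned only if the table held counts per library. It was not used, since the table holds no counts.

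The approximate SE is the size of the fold divided by the square root of the likelihood ratio, and 95% intervals are 1.96 SE on either side. SE percentiles were taken within 20 bins of mean expression. Gene positions, exons, coding sequences and 3′ UTRs came from GENCODE M21 (all 49 members matched by symbol), and shared sequence was counted as exact 50-base windows of 1 transcript per gene. The authors may have counted reads on another annotation.

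The members and lists were chosen with earlier results of these data known. The named genes were members with an unadjusted p under 0.05, the smallest p of each clade, the 2 most expressed of each group, all alpha-1 antitrypsin copies, 6 serpins with local roles (of which Serpini2 was not analysed here) and up to 3 genes of smallest p per list, less 1 local serpin and 1 pancreas marker that are counted in their lists but not reported here; other members were chosen after their values were seen. No set test was run. The calculations were checked on simulated statistics. Tables were handled in pandas 2.3.3 on Python 3.11.15, statistics came from scipy 1.17.1 with numpy 2.4.6, and plots from matplotlib 3.10.9. Alternatives were a minimum on expression, a rescaled likelihood ratio, other adjustments and thresholds, copies counted as 1 entry, and other list memberships.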

Additional observations from a re-analysis of the deposited data

How the results depend on the processing

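The count of 0 serpins past an adjusted p of 0.05 was the same with a minimum mean of 0 log2 CPM, with Bonferroni adjustment, at an adjusted p under 0.1 and with the alpha-1 antitrypsin copies counted as 1 entry. With the likelihood ratio rescaled to the chi-square median, 5 passed (Serpina3k, Serpinc1, Serpina1e, Serpina11 and Serpina3m) and 122 of all genes did, against 25 as deposited; the ratio of the medians was 0.772. That setting gave 2 lower members at an unadjusted p under 0.05 instead of 1. The higher members numbered between 8 and 12 over the settings. The liver-type median of 1.30 became 2.53 as a mean and 0.18 over every clade a gene, and the local median of 0.12 became -0.016 without clade b; the membership of these lists and the long upper tail make these differences by construction. Leaving out animals was not run, because values per library were not analysed here. No paired analysis was possible because the labels give no numbers shared between the genotypes. Depth is unknown, so genes near the floor of -4.19 log2 CPM support no statement of direction.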
